A study of Rattus norvegicus with 11 samples.

Results

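Markers of the conducting airway epithelium were followed in rat lung under hypoxia, with and without SU5416. The rule named 9 genes, Scgb1a1, Scgb3a2 and Aldh1a1 of club cells, Foxj1, Tekt1 and Dnah1 of ciliated cells, and the keratins Krt5, Krt8 and Krt18. All probe sets that carry exactly one of these symbols in the array's annotation were taken, whatever their values. This gave 8 probe sets, 1 for each of 8 genes, out of 31042 probe sets and 14217 genes on the array. Scgb3a2 was named by the rule but no probe set carries its symbol in that annotation, so no value is given for it.

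Total RNA of whole lung from Dahl salt-sensitive rats weighing 250 to 350 g was hybridised to 11 Affymetrix rat arrays after 3.5 weeks. The hypoxia with SU5416 group (3 arrays) breathed about 9.5% oxygen and received SU5416, a small molecule that blocks the receptors of vascular endothelial growth factor (VEGF). The hypoxia group (4 arrays) breathed the same gas and, per the design text, received vehicle; the normoxia group (4 arrays) breathed room air and received vehicle. All rats carry the salt-sensitive background, the lung vessels were perfused at the end, and none of the groups used here had SU5416 in room air, so an effect of SU5416 can be read only on top of hypoxia. A further group given sorafenib was not analysed here, and the labels used here give neither age nor whether each array is a separate animal, so the p-values measure the spread between these arrays, which may be technical.

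The lining of the bronchi and bronchioles is built mainly from secretory club cells and multiciliated cells, with basal cells as their progenitors in the larger airways. Club cells secrete secretoglobins into the airway fluid and metabolise inhaled chemicals. Multiciliated cells move the mucus by the beat of motile cilia, whose core, the axoneme, is powered by dynein arms. Foxj1 is the transcription factor that switches on the genes of motile cilia, in concert with factors of the RFX family, which bind a DNA element called the X-box. In mouse and human airway, Krt5 marks basal cells, whereas Krt8 and Krt18 pair as the keratin filament of luminal and other simple epithelial cells and so are not limited to the airway.

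The sequence before the start of the gene is shown for Scgb1a1, Tekt1 and Krt8, 1 gene each of the club cell, ciliated cell and keratin groups, which were also the 3 genes with an unadjusted p under 0.05 in any comparison. Each is the 250 bases before the annotated start in RefSeq, assembly GRCr8, 5′ to 3′ on the gene's strand, at chr1:215409687-215409936, chr10:57479122-57479371 and chr7:135010340-135010589, all on the minus strand. Capitals mark matches to the motifs named in the next paragraph.
Scgb1a1: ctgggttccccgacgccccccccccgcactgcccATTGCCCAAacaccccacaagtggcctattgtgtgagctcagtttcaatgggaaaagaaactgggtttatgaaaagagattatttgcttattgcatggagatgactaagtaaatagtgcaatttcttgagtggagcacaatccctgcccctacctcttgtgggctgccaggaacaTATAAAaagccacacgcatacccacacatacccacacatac
Tekt1: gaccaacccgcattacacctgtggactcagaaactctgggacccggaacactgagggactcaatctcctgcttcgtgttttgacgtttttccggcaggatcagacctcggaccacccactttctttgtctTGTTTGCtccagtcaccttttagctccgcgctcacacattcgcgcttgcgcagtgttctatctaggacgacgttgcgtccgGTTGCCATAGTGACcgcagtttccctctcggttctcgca
Krt8: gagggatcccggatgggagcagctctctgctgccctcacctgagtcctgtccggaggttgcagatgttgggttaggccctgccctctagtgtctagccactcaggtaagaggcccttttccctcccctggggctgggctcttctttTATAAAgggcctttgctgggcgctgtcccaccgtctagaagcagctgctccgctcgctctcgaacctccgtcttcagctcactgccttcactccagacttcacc

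Motifs were searched on both strands, except the TATA box TATAAA, searched on the gene's strand. They were the forkhead letters TGTTTAC and TGTTTGC, the C/EBP form TTNNGNAAT, the NKX2 letters CACTTGA, and the RFX X-box in a 15-letter form (GTNNCC and GNAAC with 4 bases between) and a 14-letter form (GTNNCC and GNNAC with 3 between), the shorter chosen after the Tekt1 sequence had been read. In Scgb1a1, TATAAA starts 41 bases before the gene's start and a C/EBP match 216 bases before it. In Tekt1, TGTTTGC starts 120 bases before the start and the 14-letter X-box form 39 bases before it, and the 2 matches do not overlap. Of the members whose sequence is not shown, the club cell gene Aldh1a1 holds the 15-letter X-box form 216 bases before the start used, and the ciliated gene Dnah1 holds neither form. The Aldh1a1 sequence, chr1:227537370-227537619, lies inside the gene's annotated span, chr1:227426939-227579497, so the start used is not the outermost. In Krt8, TATAAA lies 104 bases before the start. Among 33469 RefSeq promoters of this length, TATAAA was present in 8.06%, the C/EBP form in 10.9%, TGTTTGC in 4.16%, TGTTTAC in 3.21%, CACTTGA in 2.53%, the 14-letter X-box form in 3.65% and the 15-letter form in 0.636%. Such matches describe the letters only. Foxj1 has no entry in the promoter table.

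Values are the deposited log2 signals, in which 1 unit is a factor of 2, and differences are between group means of log2 signals. Background was set at 5.72, the level that 95% of the signals of 27 bacterial control probe sets stay under, and all 8 airway probe sets lay above it on 11 of 11 arrays. The alveolar markers of lung were well above it too, with Sftpc, a surfactant protein of alveolar type II cells, at 12.93 to 13.89 and Ager, a receptor of alveolar type I cells, at 12.68 to 13.29. Array medians lay between 7.80 and 8.01. Normoxia arrays 1 and 2 had wider gaps between the 3′ and 5′ probe sets of beta-actin, at 2.24 and 1.33, against 0.51 to 0.87 on the other arrays. A wider gap is a sign of poorer RNA integrity. Their GAPDH gaps were also the widest, at 0.84 and 0.64, against 0.06 to 0.52. The hexokinase gap was widest on normoxia array 2, at 3.22. On normoxia array 1 it was 1.82, within the 1.06 to 2.44 of the other arrays. Normoxia array 3 carried the most cardiac muscle signal, with 13 of 13 genes of that list highest there.

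Neither hypoxia with SU5416 nor hypoxia alone gave a call for any of the 8 airway genes. In hypoxia with SU5416 against normoxia 0 of 8 were called (limma, adjusted p below 0.05 over all probe sets), where 0.0612% of all probe sets were, and the lowest adjusted p was 0.394. Hypoxia against normoxia likewise gave 0 of 8, against 0.00644% of all, with a lowest adjusted p of 0.406. Hypoxia with SU5416 against hypoxia gave 0 of 8, against 0.0258%, with a lowest adjusted p of 0.676. SAM, the method that the series text names, returned 0 of 8 in each comparison, where it returned 1.18%, 1.88% and 1.0% of all probe sets in the same order.

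Few of the genes had an unadjusted limma p under 0.05. In hypoxia with SU5416 against normoxia 1 of 8 genes had one, Tekt1, which was higher; 12.4% of all probe sets had one and 4.82% were higher with one. In hypoxia against normoxia 2 of 8 had one, Krt8 higher and Scgb1a1 lower, where 11% of all probe sets had one, 3.33% higher and 7.64% lower. In hypoxia with SU5416 against hypoxia 0 of 8 had one, against 7.47% of all probe sets. Means were higher for 6, 5 and 3 of 8 genes in the 3 comparisons. Of all probe sets 44.5%, 42.4% and 52.4% were higher, and of all 14217 genes 47.4%, 48.8% and 49.0%. The median difference over the 8 genes was 0.091, 0.21 and −0.10, against −0.039, −0.045 and 0.014 over all probe sets. Over all genes it was −0.015, −0.0050 and −0.0046. The values of the 8 genes moved with the normoxia arrays used. Without normoxia array 4, 2 of 8 genes were higher in hypoxia with SU5416 and 5 of 8 in hypoxia than in normoxia, with medians of −0.025 and 0.089. Without normoxia arrays 1 and 2, 7 and 6 of 8 were higher, with medians of 0.34 and 0.42.

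**Figure D1:**
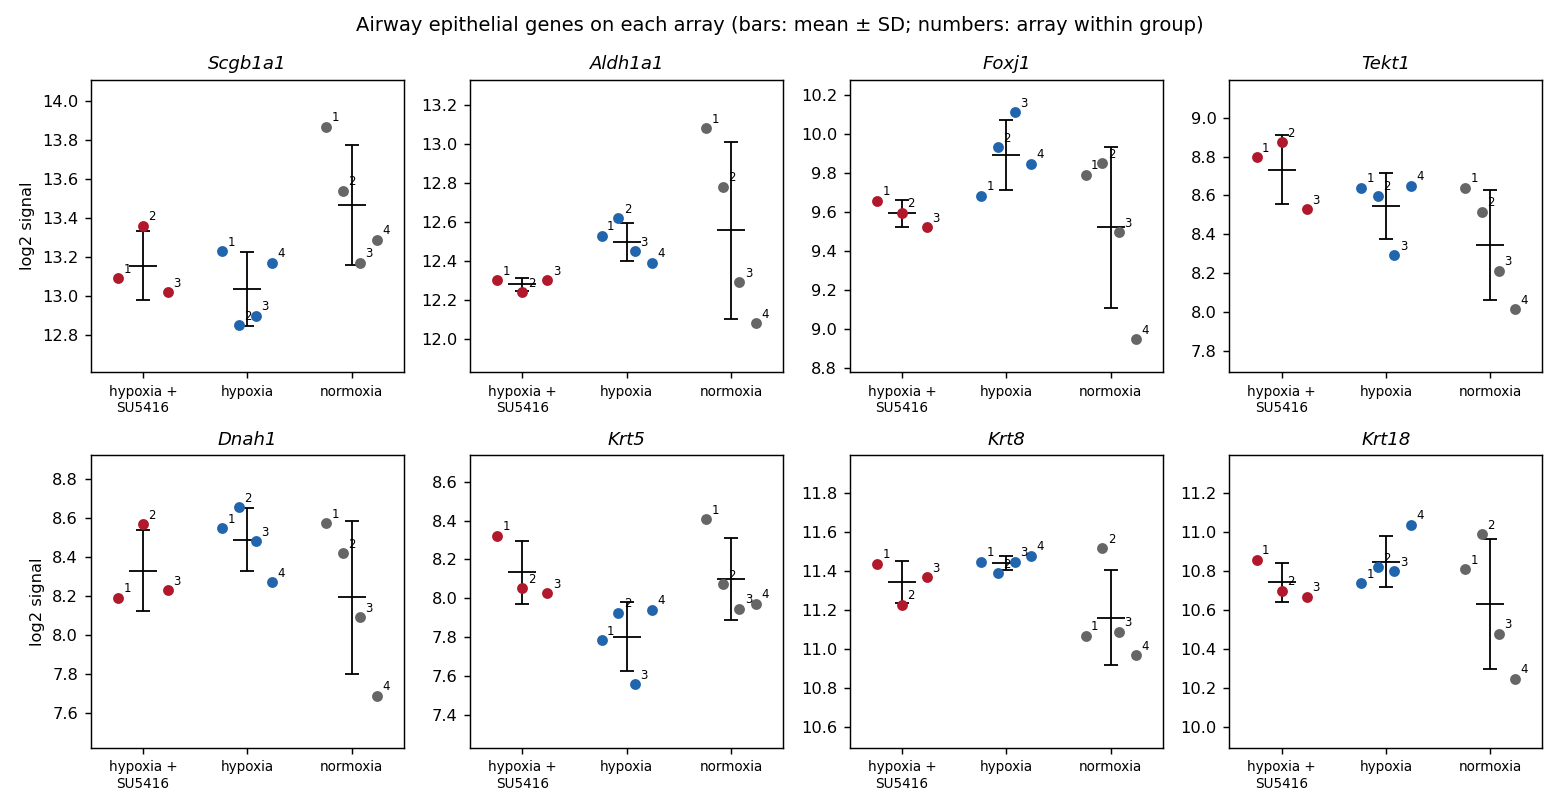
Log2 signal of the 8 airway genes on each array, 1 panel per gene, all panels spanning the same height in log2 units. Points are arrays with their number within the group, bars the mean ± SD; for every gene the normoxia SD is the largest, and normoxia array 4 is the lowest point in 6 of 8 panels.

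Scgb1a1 (probe set 1367566_at) encodes the main secretoglobin of club cells, and its signal was lower in both hypoxic groups by less than the test could call. It stood at 13.09, 13.36 and 13.02 in hypoxia with SU5416, at 13.23, 12.85, 12.9 and 13.17 in hypoxia, and at 13.87, 13.54, 13.17 and 13.29 in normoxia. The highest hypoxia array, 1, lay just above the lowest normoxia array, 3, so the groups overlapped. Hypoxia differed from normoxia by −0.43 (SE 0.17, 95% interval −0.81 to −0.054), 1.35-fold lower (limma adjusted p = 0.406). Hypoxia with SU5416 differed from normoxia by −0.31 (interval −0.72 to 0.095) and from hypoxia by 0.12 (interval −0.29 to 0.52). The 2 highest values came from the normoxia arrays with wide beta-actin gaps. Without those arrays the differences from normoxia were −0.07 for hypoxia with SU5416 and −0.19 for hypoxia, and how far RNA integrity contributes was not tested. In whole lung, fewer cells of a type and less RNA per cell cannot be told apart.

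Aldh1a1 (1387022_at), a retinaldehyde dehydrogenase abundant in club cells, differed little in mean but much in spread. Its signal was 12.3, 12.24 and 12.3 in hypoxia with SU5416, 12.53, 12.62, 12.45 and 12.39 in hypoxia, and 13.08, 12.78, 12.29 and 12.08 in normoxia. The normoxia arrays thus enclosed every array of the other groups, with an SD of 0.46 there against 0.035 in hypoxia with SU5416 and 0.10 in hypoxia. Every hypoxia with SU5416 array lay below every hypoxia array, at a difference of −0.22 (SE 0.21, interval −0.69 to 0.25; limma adjusted p = 0.872). Against normoxia the differences were −0.28 for hypoxia with SU5416 and −0.06 for hypoxia (SE 0.21 and 0.20). Both turned positive, to 0.10 and 0.31, without normoxia arrays 1 and 2, so no direction holds for this gene against normoxia.

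Foxj1 (1387386_at), the regulator of motile ciliogenesis, was highest on average in hypoxia. It stood at 9.657, 9.596 and 9.522 in hypoxia with SU5416, at 9.683, 9.931, 10.11 and 9.846 in hypoxia, and at 9.79, 9.851, 9.497 and 8.946 in normoxia. All hypoxia with SU5416 arrays were below all hypoxia arrays, with a difference of −0.30 (SE 0.21, interval −0.76 to 0.16; limma adjusted p = 0.811). Hypoxia exceeded normoxia by 0.37 (SE 0.19, interval −0.053 to 0.80; limma adjusted p = 0.508), and 1 normoxia array, number 4, lay well below the rest. Leaving it out brought that difference to 0.18 and turned the difference between hypoxia with SU5416 and normoxia, 0.07, to −0.12.

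Tekt1 (1368250_at), a tektin filament protein of the ciliary axoneme, had the smallest adjusted p among the 8 genes in hypoxia with SU5416 against normoxia. Its values were 8.795, 8.873 and 8.531 in hypoxia with SU5416, 8.639, 8.598, 8.293 and 8.65 in hypoxia, and 8.639, 8.516, 8.214 and 8.015 in normoxia. The lowest hypoxia with SU5416 array lay below the highest normoxia array, so the groups overlapped. The difference was 0.39 (SE 0.17, interval 0.0065 to 0.77), 1.31-fold (limma unadjusted p = 0.0469, adjusted p = 0.394). It ranged from 0.28 without normoxia array 4 to 0.62 without normoxia arrays 1 and 2, positive in 20 of 20 other settings. Some of those settings, such as leaving out a hypoxia array, cannot change this difference. Against hypoxia the difference was 0.19 (interval −0.19 to 0.57), and hypoxia differed from normoxia by 0.20 (interval −0.15 to 0.55).

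Dnah1 (1381039_at), a heavy chain of the inner dynein arms, was read at 8.191, 8.568 and 8.229 in hypoxia with SU5416, at 8.55, 8.655, 8.483 and 8.27 in hypoxia, and at 8.575, 8.421, 8.092 and 7.689 in normoxia. As with Foxj1, its mean was highest in hypoxia and its lowest array was normoxia array 4. Differences were 0.14 for hypoxia with SU5416 against normoxia, 0.30 for hypoxia against normoxia and −0.16 for hypoxia with SU5416 against hypoxia (SE 0.21, 0.19 and 0.21). The adjusted p from limma lay between 0.600 and 0.905. Without normoxia array 4 the first 2 of these were −0.03 and 0.13.

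Like Scgb1a1 and Tekt1, Krt5 (1370863_at), the keratin of basal cells, had a higher mean in hypoxia with SU5416 than in hypoxia. It gave 8.322, 8.053 and 8.027 in hypoxia with SU5416, 7.785, 7.926, 7.56 and 7.943 in hypoxia, and 8.408, 8.072, 7.948 and 7.974 in normoxia. All hypoxia arrays lay below the arrays of both other groups, though hypoxia array 4 and normoxia array 3 were only 0.005 apart. Hypoxia with SU5416 exceeded hypoxia by 0.33 (SE 0.15, interval −0.0054 to 0.67), 1.26-fold (limma adjusted p = 0.676). Hypoxia differed from normoxia by −0.30 (SE 0.14, interval −0.61 to 0.014; adjusted p = 0.474). Hypoxia with SU5416 and normoxia differed by 0.03 (interval −0.30 to 0.37).

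Krt8 (1371530_at) stood at 11.44, 11.23 and 11.37 in hypoxia with SU5416, at 11.45, 11.39, 11.45 and 11.48 in hypoxia, and at 11.07, 11.52, 11.09 and 10.97 in normoxia. Hypoxia exceeded normoxia by 0.28 (SE 0.13, interval 0.0011 to 0.56), 1.21-fold (limma unadjusted p = 0.0492, adjusted p = 0.455), and normoxia array 2 alone reached the level of the hypoxia arrays. Its partner Krt18 (1388155_at) was read at 10.86, 10.7 and 10.67 in hypoxia with SU5416, at 10.74, 10.82, 10.8 and 11.04 in hypoxia, and at 10.81, 10.99, 10.48 and 10.25 in normoxia. Krt18 differed by 0.22 (SE 0.16, interval −0.14 to 0.57) between hypoxia and normoxia, and its normoxia arrays enclosed all but 1 of the others. Hypoxia with SU5416 against normoxia gave 0.18 for Krt8 and 0.11 for Krt18, and against hypoxia −0.10 and −0.11.

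Arrays of the 2 groups did not overlap for 0 of 8 genes in hypoxia with SU5416 against normoxia, where 11.9% of all probe sets did not. The count was 1 of 8 in hypoxia against normoxia, Krt5 lower, against 6.13% of all probe sets in either direction and 4.08% lower. It was 3 of 8 in hypoxia with SU5416 against hypoxia, Krt5 higher and Aldh1a1 and Foxj1 lower, against 11.5% in either direction, 6.27% higher and 5.25% lower. None of these genes passed the limma test, and the 95% intervals of the 24 differences ran from −0.81 at the lowest to 0.80 at the highest.

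**Figure D2:**
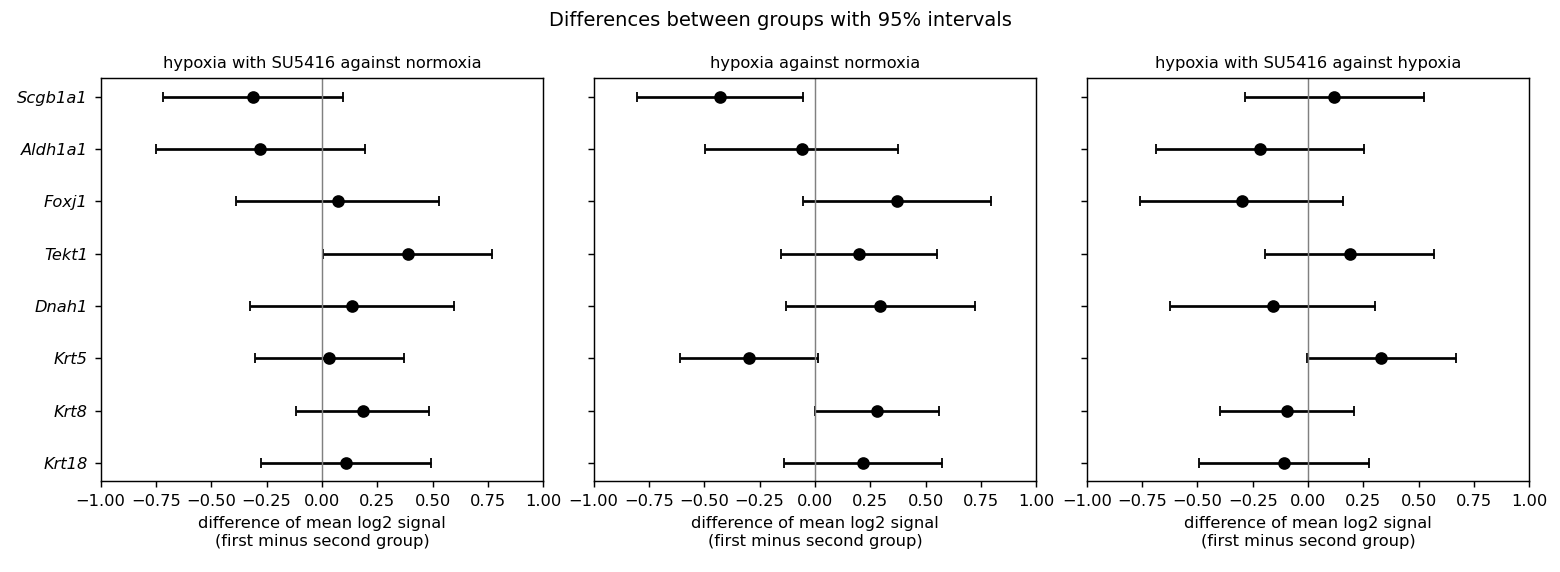
Differences of mean log2 signal for the 8 airway genes in the 3 comparisons, the first-named group minus the second. Points are the fitted differences and bars their 95% intervals; 3 intervals leave out 0, those of Tekt1 in hypoxia with SU5416 against normoxia and of Scgb1a1 and Krt8 in hypoxia against normoxia, none called after adjustment.

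The genes differed among themselves in the group order. Foxj1, Dnah1, Krt8 and Krt18 had their highest mean in hypoxia, Scgb1a1 and Aldh1a1 theirs in normoxia, and Tekt1 and Krt5 theirs in hypoxia with SU5416. No pair of groups in these orders passed the limma test for any of the 8 genes, so neighbours are not separated beyond the spread of the arrays. Foxj1 followed Krt18 (Pearson r = 0.84 over the 11 arrays) and Dnah1 (0.81), and Krt8 followed Krt18 (0.80), whereas Scgb1a1 and Foxj1 gave −0.15 and Scgb1a1 and Krt8 −0.40. Taken on deviations from the group means, these last pairs gave 0.31 and 0.086, so their negative signs come from the differences between group means. These correlations share the same arrays and are given as a description.

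The wider list of ciliated cell genes holds 128 symbols, dynein arms, radial spokes, tektins and assembly factors among them, of which 62 were measured and 54 had a mean above background. In hypoxia with SU5416 against normoxia 46 of 62 had a higher mean (47.4% of all 14217 genes), with a median difference of 0.24 against −0.015 over all genes. In hypoxia against normoxia 49 of 62 were higher (48.8% of all genes), with a median of 0.25 against −0.0050. No gene of the list was called in these comparisons, where 0.0844% and 0.0% of all genes were. Unadjusted p-values under 0.05 were found for 13 higher and 0 lower ciliated genes with SU5416 and for 15 higher and 1 lower in hypoxia alone. Over all genes, 6.02% were higher and 6.7% lower with such a p in the first comparison, and 4.3% higher and 5.29% lower in the second. Between the hypoxic groups the list was even, with 28 of 62 higher (49.0% of all genes), a median of −0.01, 0 called and 2 lower with an unadjusted p under 0.05 (3.67% of all genes were higher and 3.63% lower with one, and 0.0352% were called).

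Normoxia array 4 carried much of that difference. Without it the median of the ciliated list was 0.11 for hypoxia with SU5416 and 0.16 for hypoxia against normoxia, whereas without normoxia arrays 1 and 2 it was 0.38 and 0.41. Spa17, a sperm surface protein also made in motile cilia, was read at 8.787, 8.55 and 8.257 in hypoxia with SU5416, at 8.149, 8.563, 8.38 and 8.419 in hypoxia, and at 8.006, 8.213, 7.796 and 7.8 in normoxia. Its hypoxia with SU5416 arrays lay above all normoxia arrays, at a difference of 0.58 (SE 0.16; limma adjusted p = 0.207). The tektin Tekt4 differed from normoxia by 0.46 with SU5416 and by 0.45 in hypoxia alone (SE 0.15 and 0.14; limma adjusted p = 0.284 and 0.336). Ribc1, a protein of the ciliary microtubules, had a normoxia mean below background. Its mean in hypoxia with SU5416 was 1.63-fold above background (limma adjusted p = 0.253 against normoxia). Normoxia array 3, at 6.133, lay just above hypoxia with SU5416 array 1, at 6.131, so the groups overlapped. Ribc2, the 1 ciliated gene that SAM returned in hypoxia with SU5416 against normoxia, was below background in every group.

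Among 20 club cell symbols 16 were measured, all with a mean above background, and 0 were called in any comparison (limma), with 3, 2 and 4 of 16 at an unadjusted p under 0.05 and 0 by SAM. Over all genes 12.7%, 9.59% and 7.3% had such a p. Means were higher for 10 and 11 of 16 in hypoxia with SU5416 and in hypoxia against normoxia (47.4% and 48.8% of all genes), with medians of 0.14 and 0.19 that became −0.25 and −0.01 without normoxia array 4. Hypoxia with SU5416 against hypoxia gave 6 of 16 higher (49.0% of all genes) and a median of −0.20. Cyp4b1, a cytochrome P450 of club cells that activates protoxins, stood at 11.53, 11.73 and 11.56 in hypoxia with SU5416, at 12.13, 11.9, 11.82 and 12.35 in hypoxia, and at 12.53, 12.33, 11.9 and 12.2 in normoxia. All 3 hypoxia with SU5416 arrays were below the 8 others, with a difference of −0.63 from normoxia (SE 0.17, 1.55-fold lower; limma adjusted p = 0.199) and −0.44 from hypoxia. The claudin Cldn10, a tight junction protein, showed the opposite order at 9.237, 9.031 and 9.295 in hypoxia with SU5416, 8.789, 8.642, 8.887 and 8.796 in hypoxia, and 8.658, 8.783, 8.934 and 8.482 in normoxia. Its difference was 0.47 from normoxia (SE 0.13; adjusted p = 0.199) and 0.41 from hypoxia. Foxa2, a transcription factor of airway and alveolar epithelium, differed from normoxia by −0.35 with SU5416 (SE 0.15; adjusted p = 0.385).

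Scgb3a1, a second airway secretoglobin, spanned 4.81 log2 units over the normoxia arrays, against 0.70 for Scgb1a1, 0.63 for Cyp4b1 and 0.45 for Cldn10. It was read at 12.65, 12.7 and 11.94 in hypoxia with SU5416, at 12.25, 12.2, 12.23 and 11.99 in hypoxia, and at 7.519, 12.33, 12.33 and 9.148 in normoxia. The low values of normoxia arrays 1 and 4 made a mean difference of 2.10 for hypoxia with SU5416 (SE 1.02; limma adjusted p = 0.443) and 1.84 for hypoxia (SE 0.94; adjusted p = 0.509), while arrays 2 and 3 were level with the hypoxic groups. A further 3 genes were chosen after their values were seen. Cyp2f4, a P450 of club cells, gave 10.72, 10.38 and 10.32 in hypoxia with SU5416, 10.64, 11.22, 10.96 and 10.74 in hypoxia, and 10.45, 11.27, 10.42 and 8.346 in normoxia. Cyp2a3, a P450 of the respiratory tract, gave 10.72, 9.982 and 10.11 in hypoxia with SU5416, 9.435, 11.43, 11.57 and 10.85 in hypoxia, and 10.35, 12.01, 9.555 and 7.965 in normoxia. Both were lowest on normoxia array 4. Bpifa1, a secreted protein of upper airway fluid, ranged from 9.756 to 12.51 in hypoxia with SU5416, from 11.07 to 12.47 in hypoxia and from 9.361 to 12.69 in normoxia. None of the 3 was called in any comparison.

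**Figure D3:**
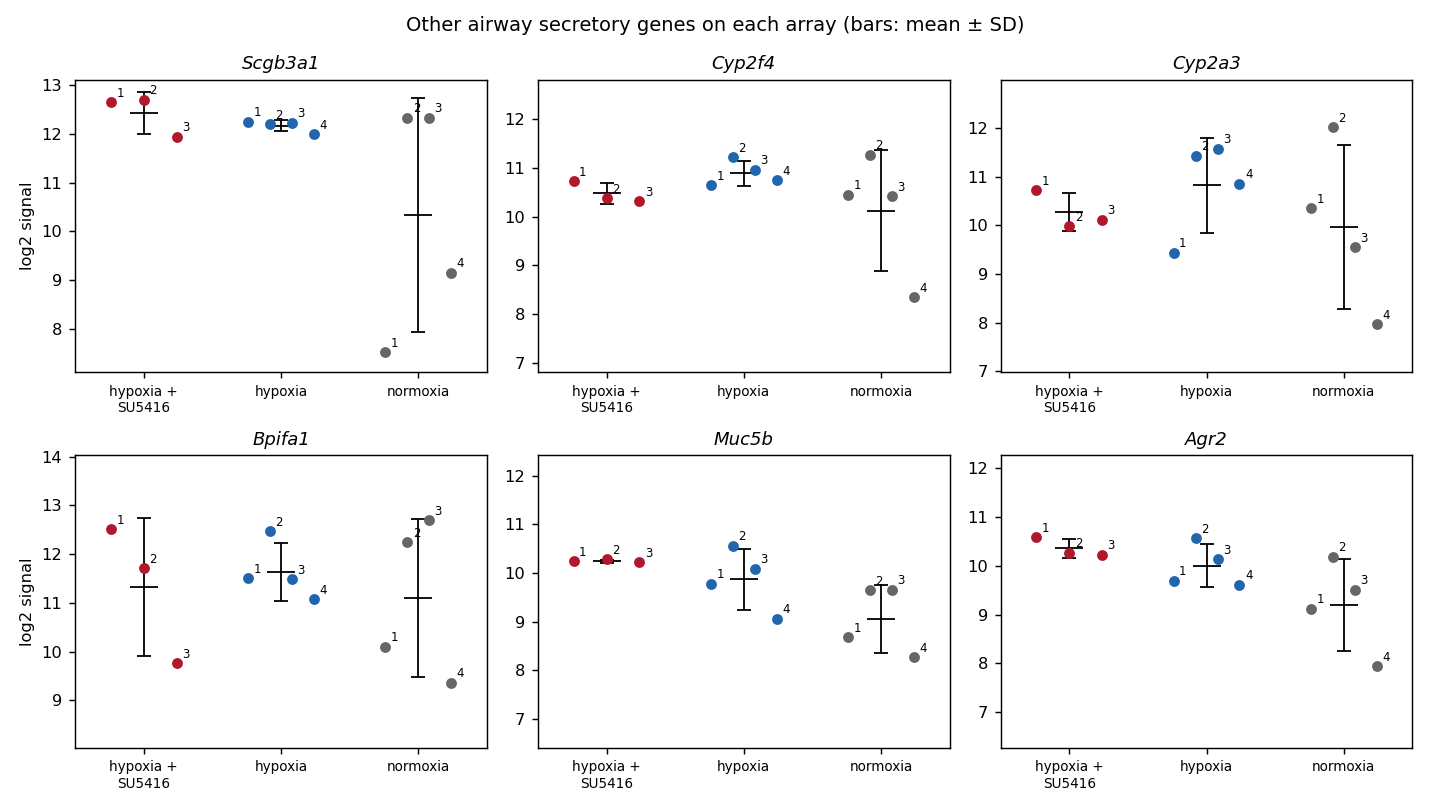
Log2 signal of 6 other airway secretory genes on each array, with array numbers and mean ± SD bars, each panel spanning 6 log2 units. Normoxia array 4 is the lowest point for Cyp2f4, Cyp2a3, Bpifa1, Muc5b and Agr2 and the second lowest for Scgb3a1, for which normoxia array 1 is lowest.

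The mucous cell list, with 18 of 20 symbols measured, had 10 of 18 higher in each comparison (47.4%, 48.8% and 49.0% of all genes) and 0 called by limma or SAM. An unadjusted p under 0.05 was found for 5, 0 and 2 of 18, against 12.7%, 9.59% and 7.3% of all genes. Muc5b, the gel-forming mucin of airway secretory cells and glands, stood at 10.24, 10.28 and 10.22 in hypoxia with SU5416, at 9.777, 10.56, 10.09 and 9.061 in hypoxia, and at 8.682, 9.642, 9.655 and 8.268 in normoxia. Every hypoxia with SU5416 array was above every normoxia array, a difference of 1.18 (SE 0.40; limma adjusted p = 0.289). Agr2, a disulfide isomerase needed to fold mucins, likewise stood apart from normoxia at 10.59, 10.27 and 10.23 in hypoxia with SU5416, against 9.697, 10.57, 10.14 and 9.615 in hypoxia and 9.119, 10.19, 9.514 and 7.942 in normoxia (difference from normoxia 1.17, SE 0.45; adjusted p = 0.337). The anion exchanger Slc26a4 differed by 0.70 from both normoxia and hypoxia (SE 0.24 each). Tff3, a trefoil peptide of mucous cells, was lower in hypoxia with SU5416, by −1.04 against normoxia (SE 0.25; adjusted p = 0.159).

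Basal cell genes gave no common direction, with 7, 5 and 8 of 13 measured genes higher in the 3 comparisons (47.4%, 48.8% and 49.0% of all genes). Limma called 0 of 13, where it called 0.0844%, 0.0% and 0.0352% of all genes. Their medians were 0.01, −0.02 and 0.02, each of which changed sign when 1 array was left out. Tp63, the defining transcription factor of basal cells, had a mean below background in every group, at 4.967 to 5.934 in hypoxia with SU5416, 5.214 to 5.785 in hypoxia and 4.566 to 6.125 in normoxia. Krt14, another basal keratin, ranged from 6.978 to 7.687 in hypoxia with SU5416, 6.945 to 7.594 in hypoxia and 6.189 to 7.886 in normoxia. Krt15, a keratin shared by basal and other progenitor cells, differed from normoxia by 0.41 with SU5416 and by 0.39 in hypoxia alone, and the stress keratin Krt17 by −0.35 and −0.10. Dapl1, expressed in basal cells of the mouse airway, differed by −0.45 between hypoxia and normoxia (SE 0.15; limma adjusted p = 0.360). Dapl1 was the 1 gene of the list with an unadjusted p under 0.05 in any comparison, where 12.7%, 9.59% and 7.3% of all genes had one. SAM returned 0, where it returned 1.18%, 1.88% and 1.0% of all probe sets.

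Simple epithelial keratins and junction genes, 27 of 32 measured, were higher for 13 genes in hypoxia with SU5416 against normoxia, for 19 in hypoxia against normoxia and for 5 in hypoxia with SU5416 against hypoxia, where 47.4%, 48.8% and 49.0% of all genes were higher. None was called by limma or SAM, and 4, 3 and 2 of 27 had an unadjusted p under 0.05, against 12.7%, 9.59% and 7.3% of all genes. Their medians were −0.0042, 0.17 and −0.13. The first was 0.067 without normoxia array 2 and −0.0775 without hypoxia with SU5416 array 1. Prom1, a membrane protein of epithelial protrusions, was highest in hypoxia, at 11.14, 11.4 and 11.33 in hypoxia with SU5416, 11.97, 11.97, 11.97 and 11.6 in hypoxia, and 11.39, 11.34, 11.45 and 11.33 in normoxia. Its hypoxia arrays stood above all others, by 0.50 over normoxia (SE 0.11; limma adjusted p = 0.249), and hypoxia with SU5416 differed from hypoxia by −0.59 (SE 0.12; adjusted p = 0.310). Krt19, a simple keratin found in airway and mesothelium, exceeded normoxia by 0.33 with SU5416 and by 0.43 in hypoxia alone (adjusted p = 0.394 and 0.332). The epithelial transcription factor Elf3 differed from normoxia by 0.40 with SU5416, and the junction protein Jup by −0.26 (adjusted p = 0.199 and 0.318).

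Aldh1a1 also belongs to retinoid metabolism, where 24 of 27 symbols were measured. Limma called 0 of 24, where it called 0.0844%, 0.0% and 0.0352% of all genes. An unadjusted p under 0.05 was found for 3, 1 and 3, again against 12.7%, 9.59% and 7.3% of all genes. The mean was higher for 7, 11 and 13 in the 3 comparisons (47.4%, 48.8% and 49.0% of all genes). Rarb, a retinoic acid receptor, stood at 10.4, 10.41 and 10.3 in hypoxia with SU5416, at 10.2, 9.799, 9.686 and 9.796 in hypoxia, and at 9.865, 9.64, 9.936 and 9.863 in normoxia. Its hypoxia with SU5416 arrays were above all others, by 0.54 over normoxia (SE 0.14; limma adjusted p = 0.171) and 0.50 over hypoxia; SAM returned it against normoxia. The retinol dehydrogenase Dhrs9 had a normoxia mean just under background. Its mean in hypoxia with SU5416 was 2.33-fold above background (limma adjusted p = 0.310 against normoxia). The arrays of that group read 5.628, 7.708 and 7.467, so the first lay under background. Rxrg, a retinoid X receptor, differed from normoxia by −0.40 with SU5416 by its brighter probe set (adjusted p = 0.199) and by −0.04 by its other one.

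Chi3l1, a chitinase-like protein on the alveolar type II list, had the smallest adjusted p of the genes described with a mean above background in hypoxia with SU5416 against normoxia. It was read at 12.93, 12.53 and 12.97 in hypoxia with SU5416, at 12.21, 11.91, 12.46 and 11.94 in hypoxia, and at 11.39, 11.77, 12.14 and 11.98 in normoxia, without overlap between the first group and the others. The difference from normoxia was 0.99 (SE 0.21; limma adjusted p = 0.117). It was called with the dimmer probe sets left out (adjusted p = 0.0351) and with limma's trend and robust options, and SAM returned it too. Nnat, the membrane proteolipid neuronatin on the neuroendocrine list, stood at 11.23, 11.52 and 11.11 in hypoxia with SU5416, at 11.46, 11.41, 11.41 and 11.13 in hypoxia, and at 10.85, 10.86, 10.38 and 10.14 in normoxia. Both hypoxic groups lay above normoxia on every array, by 0.73 and 0.80 (SE 0.19 and 0.18; limma adjusted p = 0.188 and 0.249). Nnat was called in hypoxia against normoxia, at a difference of 1.09, once the normoxia arrays with wide beta-actin gaps were left out (limma adjusted p = 0.0477).

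The remaining lists gave 0 limma calls too, where 0.0844%, 0.0% and 0.0352% of all genes were called in the 3 comparisons. Alveolar type II genes, 16 of 16 measured, had a higher mean in 11, 8 and 12 genes in the 3 comparisons, with medians of 0.074, 0.0013 and 0.10, where 47.4%, 48.8% and 49.0% of all genes were higher. Alveolar type I genes, 12 of 13 measured, were higher for 4, 10 and 2, with medians of −0.053, 0.12 and −0.065. Without normoxia arrays 1 and 2, 12 of 12 type I genes were higher in each hypoxic group than in normoxia, with medians of 0.20 and 0.28. Other arrays moved these medians the other way. The first was −0.15 without normoxia array 3, and the second was 0.048 without normoxia array 4. Neuroendocrine genes, 12 of 15 measured and 7 above background, were higher for 8, 8 and 7, with medians of 0.11, 0.23 and 0.059, the first and last of which were −0.035 and −0.095 without hypoxia with SU5416 array 1. Mesothelial genes, 10 of 12 measured, were higher for 4, 3 and 6, and squamous epithelium genes, 11 of 14 measured, for 9, 5 and 8. Cardiac muscle genes, 15 of 16 measured, were higher for 6, 1 and 13, with medians of −0.13, −0.72 and 0.54. Without normoxia array 3 the first 2 counts were 14 and 7 of 15, with medians of 0.75 and −0.015. SAM returned 1 cardiac gene, Pln, a regulator of the calcium pump, in hypoxia with SU5416 against hypoxia. Of the secretoglobins, 5 of 9 were measured and only Scgb1a1 and Scgb3a1 had a mean above background. Unadjusted p-values under 0.05 were found for at most 3 genes of any of these lists in a comparison, where 12.7%, 9.59% and 7.3% of all genes had one.

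The airway genes shared a wide spread within normoxia, and so did many other genes. The SD between arrays was largest in normoxia for 8 of 8 airway genes, where that held for 51.7% of all probe sets. Among genes with a mean above background it held for 15 of 16 club, 38 of 54 ciliated, 9 of 12 alveolar type I, 11 of 16 alveolar type II and 12 of 13 cardiac genes. Sftpc, for example, had an SD of 0.15 in hypoxia with SU5416, 0.13 in hypoxia and 0.40 in normoxia. Normoxia array 1 held the highest value of 3 of the 8 airway genes and of 5 of 16 club genes. Over 12678 genes it held the highest value of 20.3% and the lowest of 18.3%. Normoxia array 4 held the lowest value of 6 of the 8, all but Scgb1a1 and Krt5. Of the 54 ciliated genes above background, 32 were lowest on that array, 59.3% against 11.6% of 12678 genes. Club cell genes were lowest there in 7 of 16 cases. The median deviation of the ciliated list from its 11-array means was −0.48 on normoxia array 4 and −0.17 on normoxia array 3, between −0.002 and 0.17 on the other 9. For the club list it was −0.35 on normoxia array 4 and 0.27 on normoxia array 2. On normoxia array 4 the median was −0.17 for alveolar type I genes, −0.17 for simple epithelial keratins and junctions and −0.97 for cardiac muscle genes. It was −0.04 there for alveolar type II, −0.03 for basal, 0.05 for neuroendocrine, 0.05 for mesothelial and 0.11 for retinoid genes. Alveolar type I genes were lowest on normoxia array 3 in 9 of 12 cases. The beta-actin gap of normoxia array 4 was 0.60, where the lowest among the hypoxic arrays was 0.56. What made the airway signal low on normoxia array 4 was not tested.

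**Figure D4:**
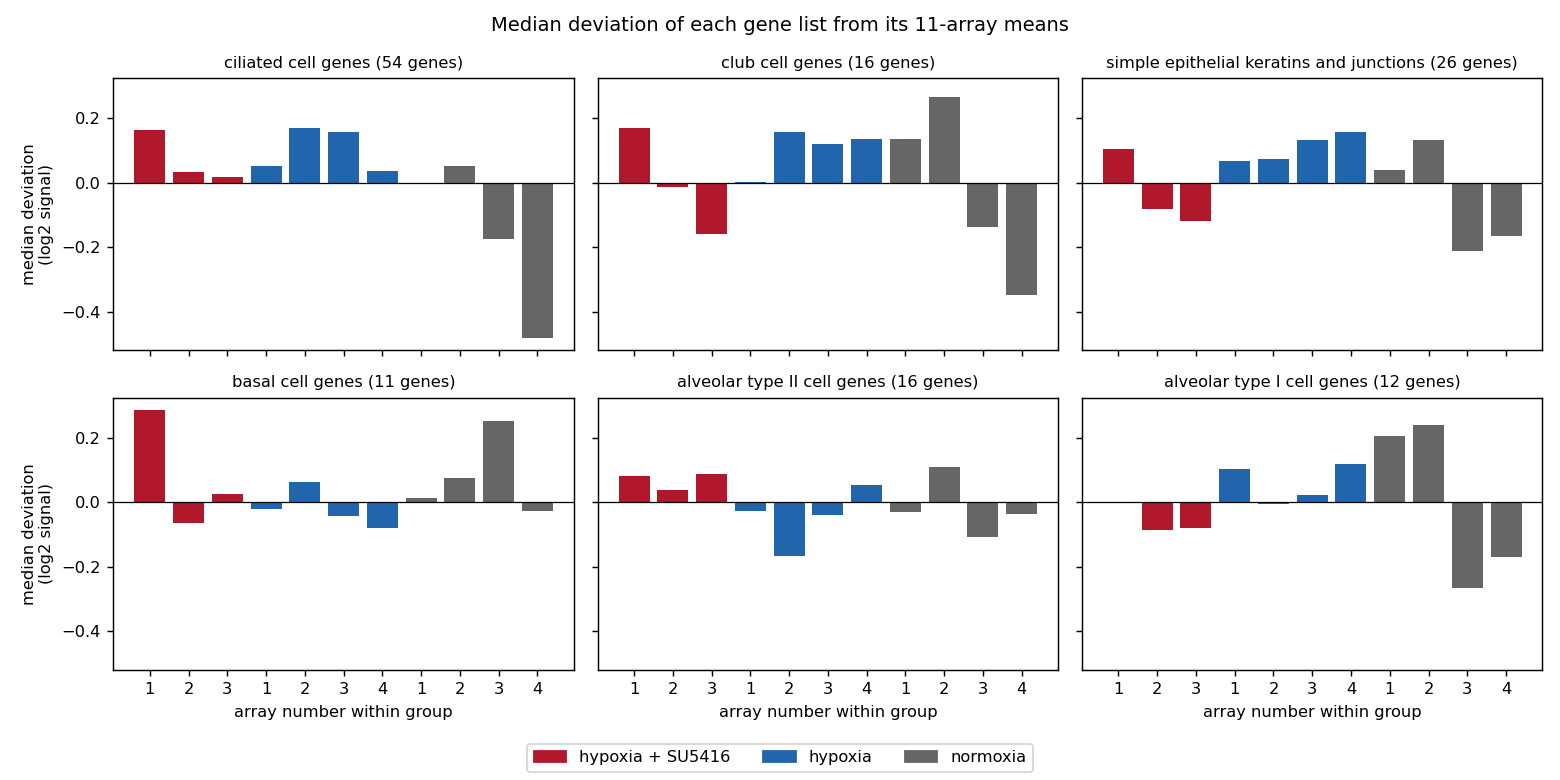
Median deviation of 6 gene lists on each array, in log2 units, from each gene's mean over the 11 arrays, for genes with a mean above background. Bars are arrays, coloured by group; the ciliated and club bars are lowest on normoxia array 4 and the alveolar type I bar is lowest on normoxia array 3.

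By Pearson correlation of log2 signals over the 11 arrays, among 12677 other genes, the profiles most like each airway gene were as follows, given without a test. Scgb1a1 was nearest to Lyz2 (r = 0.95), Sostdc1 and Hnrnph1 (0.93 each). Aldh1a1 was nearest to Arid1a (0.97), Scrib and Dhx30 (0.95 each). Foxj1 was nearest to Fam149a (0.95), Tpd52l2 and Spef1 (0.93 each), and Spef1 is also on the ciliated list. Tekt1 was nearest to Git1 (0.93), Gspt2 (0.91) and Stat3 (0.90), and Dnah1 to Dync2h1 (0.95), Tbcel (0.93) and Foxp1 (0.92). Krt5 was nearest to Mogat2 (0.94), Sct (0.92) and Sumf2 (0.91), Krt8 to Cystm1, Gstm1 and Mcu (0.91 each), and Krt18 to Sowaha (0.93), Anpep and Ubl5 (0.91 each).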

How the data were processed

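Gene expression was measured on 11 Affymetrix rat arrays of whole lung, in 3 groups taken from the labels: hypoxia with SU5416 (3), hypoxia (4) and normoxia (4). The deposited values are log2 signals, a single value for each probe set on each array. Per the submitters' processing notes the authors used RMA, with no version given; since the arrays' distributions are not equal, as RMA's quantile step would leave them, the summarisation is uncertain. The values were used as deposited. The number of arrays, not a read depth, limits the precision.

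Of 31099 probe sets, 57 array controls were set aside. Symbols came from the array's annotation; 20826 probe sets name 1 gene, 436 several and 9780 none, and for 20758 of the first kind the gene ID was found in the RefSeq gene table, which gave current symbols. The airway genes and the 13 gene lists were chosen with earlier results of these data known. Each gene of a list stands by its probe set of highest mean. The text names every airway probe set, up to 4 genes of smallest adjusted p from each list, and the 3 most alike genes of each airway gene by Pearson r; other names are said to be chosen after their values were seen. Sftpc, Ager, Tp63 and Krt14 are given by level, as markers.

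Group means were fitted over all arrays with limma 3.58.1 (R 4.3.3; lmFit, then eBayes; two-sided; 8 residual degrees of freedom), with Benjamini-Hochberg adjustment over 31042 probe sets in each of 3 comparisons. Where a group's mean was under background, the fold was computed from the background level. It is then a lower bound with respect to that floor only, not to the spread between arrays. The alternatives were quantile normalization, centring, leaving out dimmer probe sets, fitting 2 groups only, trend and robust options, array weights, the replicate number as a block, leaving out each array or normoxia arrays 1 and 2, the beta-actin gap as a covariate, an adjusted p below 0.10, and SAM with the delta of 0.639 and minimum fold of 1.4 of the series text. The labels pair no arrays. In data simulated with the groups' sizes over 31042 probe sets, a true log2 change of 1 was recovered in 50.7% of cases for hypoxia with SU5416 against normoxia, 44.8% for hypoxia against normoxia and 41.8% for hypoxia with SU5416 against hypoxia, and one of 0.5 in 2.99%, 7.46% and 7.46%. Promoter sequences are those of RefSeq, GRCr8. Python 3.11.15 with pandas 2.3.3, numpy 2.4.6 and, for figures, matplotlib 3.10.9 was used.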

Additional observations from a re-analysis of the deposited data

Results flagged for a closer look

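Within groups of 4 arrays, 72 sets of values were examined for an array far from the others, and 3 were found; chance finds about 1 in 20. Tekt1 on hypoxia array 3 was read at 8.293, against 8.598 to 8.65 on the other hypoxia arrays. Nnat on hypoxia array 4 was read at 11.13, against 11.41 to 11.46 on the others. Prom1 on hypoxia array 4 was read at 11.6, against 11.97 on each of the others.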

How the results depend on the processing

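The count of airway genes called was 0 of 8 in every alternative tried, SAM, the looser threshold and the replicate block included. Of 480 differences of airway genes under other settings, 465 kept their sign and 15 reversed, none of them called. Some of these settings change only the p and cannot change a difference, so the 465 include unchanged repeats. They are leaving out an array of the group not compared, leaving out dimmer probe sets, fitting 2 groups only, and the trend and robust options. Aldh1a1 reversed most: hypoxia with SU5416 against normoxia was 0.095 without normoxia arrays 1 and 2 and 0.019 with the gap of beta-actin as a covariate, and hypoxia against normoxia was 0.03 after centring, 0.080 with array weights, 0.31 without normoxia arrays 1 and 2 and 0.14 with the covariate. Foxj1 in hypoxia with SU5416 against normoxia was −0.033 with the replicate block. Leaving out 1 array at a time gave, for hypoxia against normoxia, −0.22 to 0.11 for Aldh1a1 and −0.048 to 1.06 for Bpifa1, and for hypoxia with SU5416 against normoxia, −0.12 to 0.18 for Foxj1, −0.033 to 0.26 for Dnah1, −0.061 to 0.14 for Krt5 and −0.017 to 0.23 for Krt18. Leaving out normoxia array 4 gave the lowest value for Foxj1, Dnah1, Krt18 and Bpifa1, leaving out hypoxia with SU5416 array 1 that for Krt5, and Krt5 was also negative without normoxia array 3 and without normoxia array 4. Ribc2 was called in hypoxia with SU5416 against normoxia without hypoxia array 1 (limma adjusted p = 0.0331, 0.113 with all arrays). The causes of these reversals were not tested. Over all probe sets the counts called by limma ranged from 6 to 214, 0 to 99 and 6 to 24 in the 3 comparisons, against 19, 2 and 8 in the fit reported, and were 6, 1 and 6 with the replicate block. SAM returned 366, 584 and 311. Changes of 0.5 on the log2 scale, larger than any airway difference in the fit reported, were rarely called in simulated data. Changes of 1 were called in 41.8% to 50.7% of cases, so 0 calls alone set no limit at either size.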
